A study of Mus musculus with 12 samples.

Results

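The genes of cholesterol synthesis, their sterol-sensing regulators and the sterol-regulated enzymes of fatty acid synthesis were followed in F9 cells, a mouse teratocarcinoma line that resembles early embryonic cells. The set was a list of 34 genes. All probe sets that the platform annotation gave one of these symbols were taken, which found 72 probe sets for 33 genes, of 37600 probe sets and 16509 genes with a symbol in all. Expression of Acat2 was not analysed here, and its promoter is counted among those below. By role, 7 measured genes (16 probe sets) belonged to the mevalonate pathway and 12 (24 probe sets) to the route from farnesyl diphosphate to cholesterol. A further 5 (9 probe sets) were regulators, Stard4 (3 probe sets) was a sterol carrier, and 8 (20 probe sets) belonged to fatty acid synthesis. A single probe set read 12 of the genes, and the other 21 had up to 4 each.

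The study measured mRNA on 12 Affymetrix arrays, asking how the retinoic acid receptor alpha gene, Rara, bears on the response to all-trans retinoic acid (atRA). The 4 groups of 3 arrays were wild-type cells (WT) given ethanol vehicle at 0.1%, WT given 1 µM atRA, and the line labelled RARaKO, a knockout of Rara, given either. All 12 dishes also held cycloheximide, which blocks protein synthesis, at 1 µg/ml, added 30 min before atRA or vehicle and kept for 8 h in total. Each group had an array in each of sets 2, 3 and 4, named here by that number. How the RARaKO line was made, and whether it is a single clone, is not given in the sources used here. The probe set for Rara was higher in the arrays labelled RARaKO than in WT by 0.90 ± 0.09 in vehicle (limma, adjusted p = 1.50e-04) and by 0.36 ± 0.09 in atRA (adjusted p = 0.0488), so every genotype difference below is one between arrays by label.

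The deposited expression values, taken as log2, carry no absolute level: every probe set has a median of 0 across the arrays, and only differences between arrays can be read. A lost level was recovered as a coarse class: 45 of the 72 probe sets lay at 8 or above on every array and 27 between 4 and 8. Differences are given ± the standard error of the fit with 3 arrays a group, and a probe set was called where the p from limma was under 0.05 after Benjamini-Hochberg adjustment across all 37600. In bulk RNA, fewer cells of a type and less RNA per cell cannot be told apart. All 7 genes of a list of F9 stem cell markers lay in the class of 8 or above. Of their 9 probe sets 0 were called between genotypes in either treatment, and with treatments averaged 1 was, that of Pou5f1, lower in RARaKO at -0.16 ± 0.04 (adjusted p = 0.0155). By gene means 1 of the 7 genes was called lower in atRA. The part of these markers in the genotype differences below was not tested. The 7 known retinoic acid targets chosen as a check (Cyp26a1, Rarb, Cdx1, Hoxb5, Hoxb1, Stra8 and Dhrs3) were called higher with atRA in both genotypes. They were chosen with earlier results of these data known, so their calls are no independent test.

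Cholesterol is built from acetyl-CoA. Hmgcs1 makes HMG-CoA, the mevalonate kinases and decarboxylase turn mevalonate into isoprene units, and these are joined to farnesyl diphosphate, squalene and the first sterol, lanosterol, which a chain of enzymes trims to cholesterol. The pathway is set by SREBP transcription factors, which the sterol sensor SCAP and the INSIG proteins hold in the endoplasmic reticulum while sterols are plentiful. When sterols run low, SCAP carries SREBP to the Golgi, proteases release its active part, and it binds sterol response elements, commonly beside binding sites for NF-Y (CCAAT) and Sp1 (GC boxes). SREBP2 is best known for driving sterol genes and SREBP1 for driving fatty acid genes, with much overlap.

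The 250 bases before the RefSeq gene start (GRCm38.p6) are shown for Hmgcs1, Lss, Acly and Insig1, since SREBP is known to act there. These are some of the members with a called difference between genotypes below, Insig1 only with treatments averaged. The promoters of Tm7sf2 and Nsdhl, also called only with treatments averaged, are not shown. Capitals mark the sterol response element core TCACNCCAC and the NF-Y box CCAAT, read on either strand. They lie at chr13:119690101-119690350 on the forward strand, chr10:76531355-76531604 on the forward strand, chr11:100528001-100528250 on the reverse strand and chr5:28071162-28071411 on the forward strand, and each is written 5′ to 3′ toward its gene.
Hmgcs1: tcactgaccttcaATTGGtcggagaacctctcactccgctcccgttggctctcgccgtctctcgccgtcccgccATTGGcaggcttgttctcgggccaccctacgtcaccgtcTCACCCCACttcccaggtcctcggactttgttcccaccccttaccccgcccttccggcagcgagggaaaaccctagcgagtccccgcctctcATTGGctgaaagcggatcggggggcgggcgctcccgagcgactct
Lss: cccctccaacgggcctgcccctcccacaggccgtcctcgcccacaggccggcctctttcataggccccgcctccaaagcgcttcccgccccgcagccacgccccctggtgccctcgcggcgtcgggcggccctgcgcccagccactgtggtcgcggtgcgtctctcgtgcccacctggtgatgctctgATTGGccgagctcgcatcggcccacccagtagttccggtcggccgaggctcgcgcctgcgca
Acly: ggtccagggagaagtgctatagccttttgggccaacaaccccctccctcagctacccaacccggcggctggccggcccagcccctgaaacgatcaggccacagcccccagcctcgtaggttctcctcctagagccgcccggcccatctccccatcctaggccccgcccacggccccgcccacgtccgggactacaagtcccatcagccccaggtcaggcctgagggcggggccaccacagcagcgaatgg
Insig1: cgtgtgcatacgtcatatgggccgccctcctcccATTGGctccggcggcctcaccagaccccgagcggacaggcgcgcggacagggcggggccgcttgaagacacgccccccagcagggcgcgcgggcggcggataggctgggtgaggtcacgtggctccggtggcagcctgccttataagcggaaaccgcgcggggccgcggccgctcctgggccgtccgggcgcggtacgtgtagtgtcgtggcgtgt

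RefSeq promoters were matched for 27 of the 34 members. The core TCACNCCAC, sought on both strands, was in 1 of the 27, Hmgcs1, which holds it as TCACCCCAC 137 bases before the start, against 1.22% of 27025 genes with a promoter of that length. CCAAT was in 21 of 27 members (77.8%), against 37.5% of all genes. The GC box GGGCGG was in 22 of 27 (81.5%), against 35.4%. Retinoic acid elements, spelled as direct repeats of AGGTCA or of AGTTCA with 5 bases between them, were in 0 of 27, against 0.0111% and 0.0259% of all genes. These are matches of letters in a short window, not measured binding.

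Hmgcs1, the cytosolic HMG-CoA synthase and the entry enzyme of the pathway, was the member that differed most between genotypes, and it lay lower under the RARaKO label by about the same amount in vehicle and in atRA. Its probe set 1433443_a_at read 0.59, 0.47 and 0.54 in the WT vehicle arrays of sets 2, 3 and 4 and 0.69, 0.37 and 0.66 in WT atRA. It read -0.47, -0.49 and -0.37 in RARaKO vehicle and -0.47, -0.58 and -0.43 in RARaKO atRA. All 6 RARaKO arrays thus lay below all 6 WT arrays, with no overlap, and within a genotype the vehicle and atRA arrays overlapped. The difference between genotypes was -0.97 ± 0.09 in vehicle (adjusted p = 7.21e-05), a 1.96-fold lower value with a 95% interval of -1.16 to -0.79. In atRA it was -1.07 ± 0.09 (adjusted p = 4.02e-05), 2.09-fold lower, with an interval of -1.25 to -0.88.

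The other 3 probe sets of Hmgcs1 had the same pattern. The WT arrays spanned 0.29 to 0.63 and the RARaKO arrays -0.80 to -0.29 for 1433444_at. For 1433445_x_at the spans were 0.34 to 0.70 and -0.59 to -0.34, and for 1433446_at 0.19 to 0.84 and -0.52 to -0.19. No RARaKO array reached the lowest WT array in any of them. Their differences were -0.79 ± 0.12, -0.87 ± 0.09 and -0.78 ± 0.14 in vehicle and -1.06 ± 0.12, -0.997 ± 0.09 and -0.99 ± 0.14 in atRA, and all were called (largest adjusted p = 0.00883). The difference was below 0 in each of the 3 sets for all 4 probe sets. Without set 3 the calls in vehicle of 1433444_at (-0.67, adjusted p = 0.102) and 1433446_at (-0.66, adjusted p = 0.0521) were lost. Without set 4 those of 1433446_at were lost in vehicle (-0.88, adjusted p = 0.0941) and atRA (-1.01, adjusted p = 0.0551), and without variance moderation its vehicle call was lost too (adjusted p = 0.0614). Those of 1433443_a_at held in all 25 alternative settings in each treatment.

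**Figure D1:**
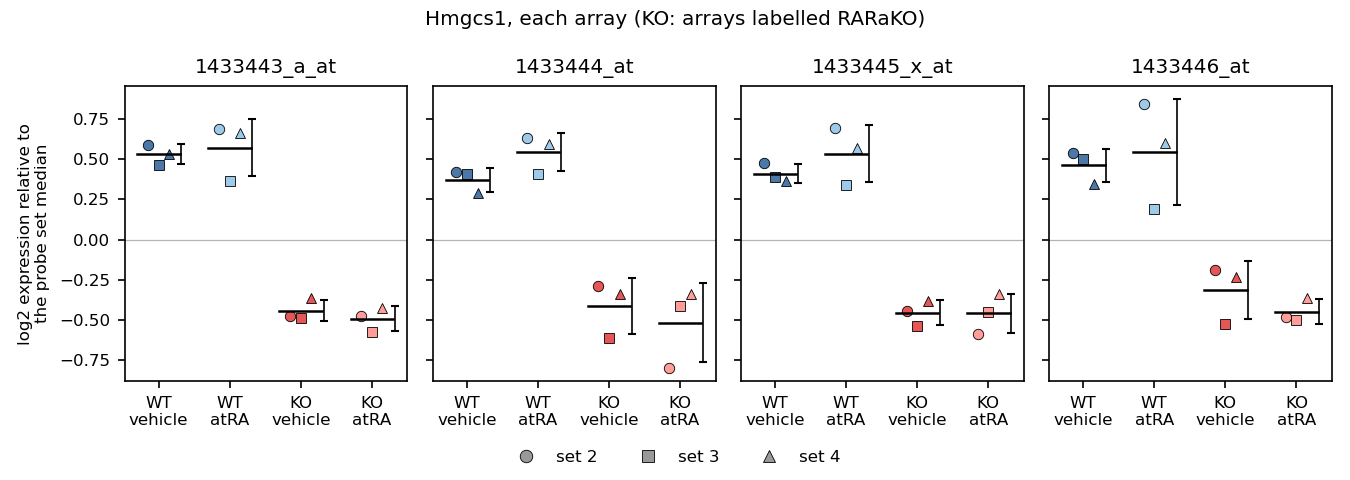
Expression of Hmgcs1 on each array, relative to the probe set's median over 12 arrays (log2 scale), for its 4 probe sets; points are arrays by set, lines are group means and bars the standard deviation of 3 arrays. In all 4 panels the 6 arrays labelled RARaKO (KO) lie below the 6 WT arrays, and atRA and vehicle overlap within each genotype.

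Hmgcs1 was not the only lower gene at its place on chromosome 13. In the RefSeq gene order (GRCm38.p6) the 5 measured genes just before it are Nnt, Paip1, 4833420G17Rik, Tmem267 and Ccl28, with 14 probe sets. In vehicle 6 of the 14 were called lower and 0 higher, against 1.16% and 1.84% of all probe sets, with a median difference of -0.28. In atRA 6 of the 14 were called lower and 0 higher, against 1.51% and 1.61%, with a median of -0.32. The largest called differences among them were those of Tmem267 in vehicle (-0.68 ± 0.14, adjusted p = 0.0229) and of Paip1, which encodes a poly(A)-binding protein partner. Its probe set with the smallest p differed by -0.53 ± 0.08 in vehicle (adjusted p = 0.00378) and -0.63 ± 0.08 in atRA (adjusted p = 0.0011), and a further probe set by -0.74 ± 0.14 in atRA (adjusted p = 0.0105). Nnt, the mitochondrial transhydrogenase, differed by -0.26 ± 0.07 and -0.31 ± 0.07 in 1 of its 3 probe sets. The 5 measured genes before Nnt (7 probe sets) and the 6 after Hmgcs1 (6 probe sets) had 0 called in either treatment. This stretch was delimited after its values were seen and carries no test, and its part in the Hmgcs1 difference was not tested. Among the 20 nearest measured genes of Lss and of Scd1 0 were called, and among the 29 probe sets near Acly 2 were lower in each treatment.

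**Figure D2:**
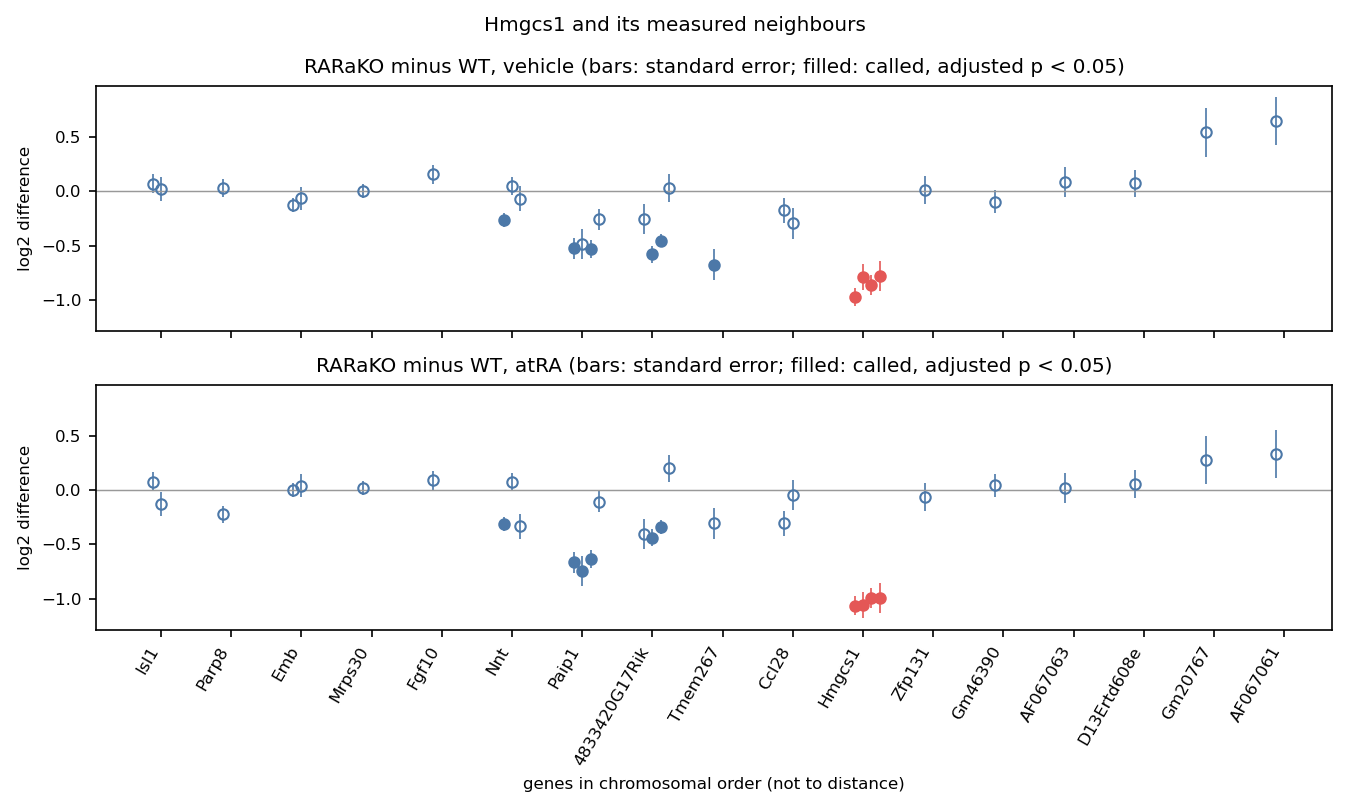
Difference between arrays labelled RARaKO and WT (log2, ± standard error) for each probe set of Hmgcs1 (red) and its measured neighbours (blue) in chromosomal order, in vehicle (top) and atRA (bottom); filled points were called. The 4 Hmgcs1 points lie lowest, at -0.97 to -0.78 in vehicle, filled points extend from Nnt up to Tmem267 in vehicle, and none stands before Nnt or after Hmgcs1.

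Over the whole set, few members besides Hmgcs1 were called between genotypes in the fit without a set block. Those called there in a single treatment were all lower under the RARaKO label. In vehicle 5 of 72 member probe sets were called lower and 0 higher: the 4 of Hmgcs1 and 1 of Scd1. Among all 37600 probe sets 3.01% were called in this comparison, 1.16% lower and 1.84% higher. In atRA 6 members were called lower and 0 higher: the 4 of Hmgcs1, 1 of Lss and 1 of Acly. There 3.12% of all probe sets were called, 1.51% lower and 1.61% higher. With Hmgcs1 set aside, 1 of 68 member probe sets was called in vehicle and 2 of 68 in atRA.

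The set numbers paired the arrays in the vehicle comparison, and with the set as a block 9 member probe sets were called there, 7 lower and 2 higher, beside 1972 of all probe sets in place of 1131. The 4 added were of Lss, Acly, Sqle and Ggps1. The genotypes did not overlap in 15 member probe sets that were lower and 4 that were higher in vehicle, against 12.7% and 9.69% of all probe sets. In atRA 18 were lower and 4 higher without overlap, against 10.5% and 9.9%. The median difference over the 33 genes was -0.055 in vehicle and -0.047 in atRA, against -0.016 and -0.004 over all genes. The vehicle median was 0.008 without set 2, and the atRA median -0.106 without set 4. Of the probe sets not called, 61 of 67 in vehicle and 60 of 66 in atRA had a 95% interval inside ±0.5, and all lay inside ±1.

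**Figure D3:**
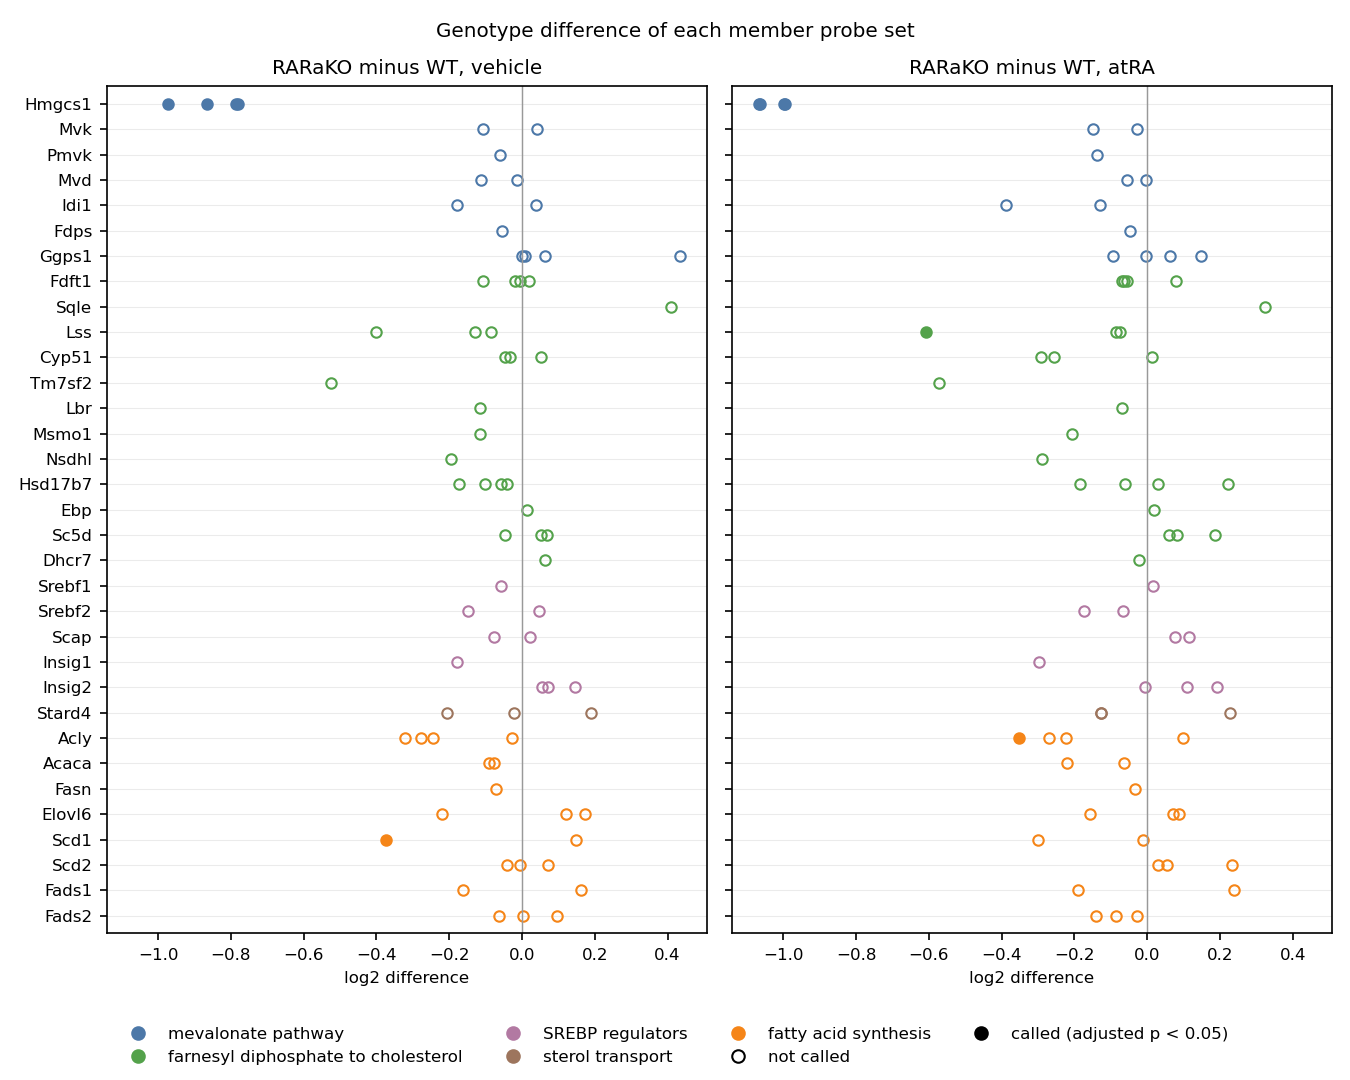
Difference between arrays labelled RARaKO and WT (log2) for each member probe set, by gene and role, in vehicle (left) and atRA (right); filled points were called. The 4 Hmgcs1 points stand apart at -1.07 to -0.78, while the other filled points (Scd1, Lss and Acly) lie between -0.61 and -0.35.

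The mean of the vehicle and atRA genotype differences was tested too, an addition made after the data were seen, which uses all 12 arrays. It called 12 of 72 member probe sets lower and 1 higher, when 10.9% of all probe sets were called, 5.61% lower and 5.28% higher. The lower calls were the 4 of Hmgcs1, 3 of Acly and 1 each of Lss, Scd1, Insig1, Tm7sf2 and Nsdhl, and the higher call was Sqle. The call of Lss was lost without set 2 (-0.43, adjusted p = 0.064), and that of Scd1 without set 4 (-0.36, adjusted p = 0.0681) or by gene means (-0.13, adjusted p = 0.0848). By the mean of each gene's probe sets 7 member genes were called lower and 1 higher, of 33, when 14% of all genes were called.

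Among the other mevalonate genes the differences were small. Those of Mvk, Pmvk, Mvd, Idi1 and Fdps, which make and join isoprene units, lay between -0.18 and 0.04 in vehicle and between -0.39 and -0.00 in atRA, and 0 were called. The lowest was Idi1 probe set 1423804_a_at in atRA. Idi1, which interconverts the isoprene isomers, read -0.12, 0.13 and -0.16 in the WT vehicle arrays, 0.11, 0.11 and 0.20 in WT atRA, 0.00, -0.03 and -0.00 in RARaKO vehicle and -0.78, 0.12 and -0.08 in RARaKO atRA there. A single array, RARaKO atRA of set 2, set it apart, and its other probe set differed by -0.13 ± 0.09. Ggps1, which makes geranylgeranyl diphosphate for protein prenylation, read 0.01, -0.08 and -0.30 in the WT vehicle arrays, 0.06, -0.19 and -0.04 in WT atRA, 0.51, 0.47 and -0.06 in RARaKO vehicle and 0.24, 0.04 and -0.01 in RARaKO atRA for probe set 1419506_at. It was highest in RARaKO vehicle of sets 2 and 3, and the vehicle groups overlapped. The difference was 0.43 ± 0.14 (adjusted p = 0.138), 0.0325 with the set as a block, and 0.62 without the RARaKO vehicle array of set 4 (adjusted p = 0.0139). Its other 3 probe sets differed by 0.00, 0.01 and 0.06.

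On the route from farnesyl diphosphate to cholesterol, 0 of 24 probe sets were called in vehicle and 1 lower in atRA. Lss, the synthase that folds squalene epoxide into lanosterol, read 0.31, 0.14 and 0.17 in the WT vehicle arrays, 0.27, 0.01 and 0.44 in WT atRA, -0.33, -0.24 and -0.01 in RARaKO vehicle and -0.39, -0.51 and -0.20 in RARaKO atRA for probe set 1426913_at. In each treatment all 3 RARaKO arrays were below all 3 WT arrays. The difference was -0.40 ± 0.12 in vehicle (adjusted p = 0.0987, and 0.025 with the set as a block) and -0.61 ± 0.12 in atRA (adjusted p = 0.0137). In atRA the call was lost without the WT atRA array of set 2 (-0.59, adjusted p = 0.0512) or of set 4 (-0.51, adjusted p = 0.0694), without any whole set (adjusted p = 0.0593 to 0.146) and without variance moderation (adjusted p = 0.0663). The other 2 probe sets of Lss differed by -0.09 and -0.13 in vehicle and -0.09 and -0.07 in atRA.

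Sqle, the squalene epoxidase that acts just before Lss, was the member called higher when treatments were averaged. It read 0.00, -0.24 and -0.25 in the WT vehicle arrays, -0.05, -0.29 and -0.26 in WT atRA, 0.41, 0.16 and 0.18 in RARaKO vehicle and 0.34, 0.03 and -0.00 in RARaKO atRA. Set 2 was highest in every group, and within each set the RARaKO array was above the WT array in both treatments. The difference was 0.41 ± 0.11 in vehicle (adjusted p = 0.0737) and 0.32 ± 0.11 in atRA (adjusted p = 0.142). With the set as a block the vehicle value was called (adjusted p = 0.00162), as it was without set 2 (0.41, adjusted p = 0.0319) or without the RARaKO atRA array of set 2 (adjusted p = 0.0361). Array weights (adjusted p = 0.0311), gene means (0.0495), a level of at least 8 (0.0398) and quantile normalization (0.0375) also gave a call in vehicle. Averaged over treatments it was 0.37 ± 0.08 (adjusted p = 0.0103), lost without set 3 (adjusted p = 0.102) or set 4 (adjusted p = 0.0849).

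Among the later enzymes Tm7sf2, a sterol C14 reductase, read 0.37, 0.04 and 0.09 in the WT vehicle arrays, 0.11, 0.04 and 0.05 in WT atRA, -0.47, -0.56 and -0.04 in RARaKO vehicle and -0.38, -1.002 and -0.13 in RARaKO atRA. The 3 RARaKO arrays of a treatment spread widely, with set 4 near the WT arrays. The difference was -0.52 ± 0.19 in vehicle (adjusted p = 0.19) and -0.57 ± 0.19 in atRA (adjusted p = 0.129). Averaged over treatments it was -0.55 ± 0.13 (adjusted p = 0.0202), lost without the RARaKO vehicle array of set 2 (adjusted p = 0.0505) or set 3 (adjusted p = 0.0557) and without the whole of either set (adjusted p = 0.176 and 0.0943).

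Nsdhl, which removes the C4 methyl groups with Msmo1 and Hsd17b7, read 0.17, 0.02 and 0.11 in the WT vehicle arrays, 0.08, 0.00 and -0.00 in WT atRA, -0.20, -0.14 and 0.05 in RARaKO vehicle and -0.20, -0.42 and -0.16 in RARaKO atRA. In atRA the genotypes did not overlap, and in vehicle the RARaKO array of set 4 overlapped WT. The difference was -0.20 ± 0.09 in vehicle (adjusted p = 0.296) and -0.29 ± 0.09 in atRA (adjusted p = 0.0931). The atRA value was called with the set as a block (adjusted p = 0.0494) and at a level of at least 8 (adjusted p = 0.0437). The averaged difference of -0.24 ± 0.06 (adjusted p = 0.0227) lost its call without the vehicle array of set 2 or 3 of RARaKO or of set 2 or 4 of WT, or without the WT atRA array of set 2 (adjusted p = 0.0507 to 0.059). It was lost without any whole set as well (adjusted p = 0.0568 to 0.189).

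The remaining sterol enzymes had no called difference between genotypes. Fdft1 (squalene synthase), Cyp51 (lanosterol demethylase), Lbr, Msmo1, Ebp, Dhcr7 (the last reductase), Sc5d and Hsd17b7 had differences of -0.17 to 0.07 in vehicle and of -0.29 to 0.22 in atRA, and 0 of their 18 probe sets were called. The lowest was Cyp51 probe set 1422534_at in atRA, at -0.29 ± 0.09 (adjusted p = 0.109). The highest was Hsd17b7 probe set 1417871_at, at 0.22 ± 0.15, whose 4 groups all overlapped. In atRA the RARaKO arrays lay without overlap below WT for Cyp51 1422533_at, Msmo1 and Hsd17b7 1440057_at. They lay without overlap above WT for Sc5d 1424709_at and 1451457_at. Of all probe sets 10.5% lay lower and 9.9% higher without overlap there.

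**Figure D4:**
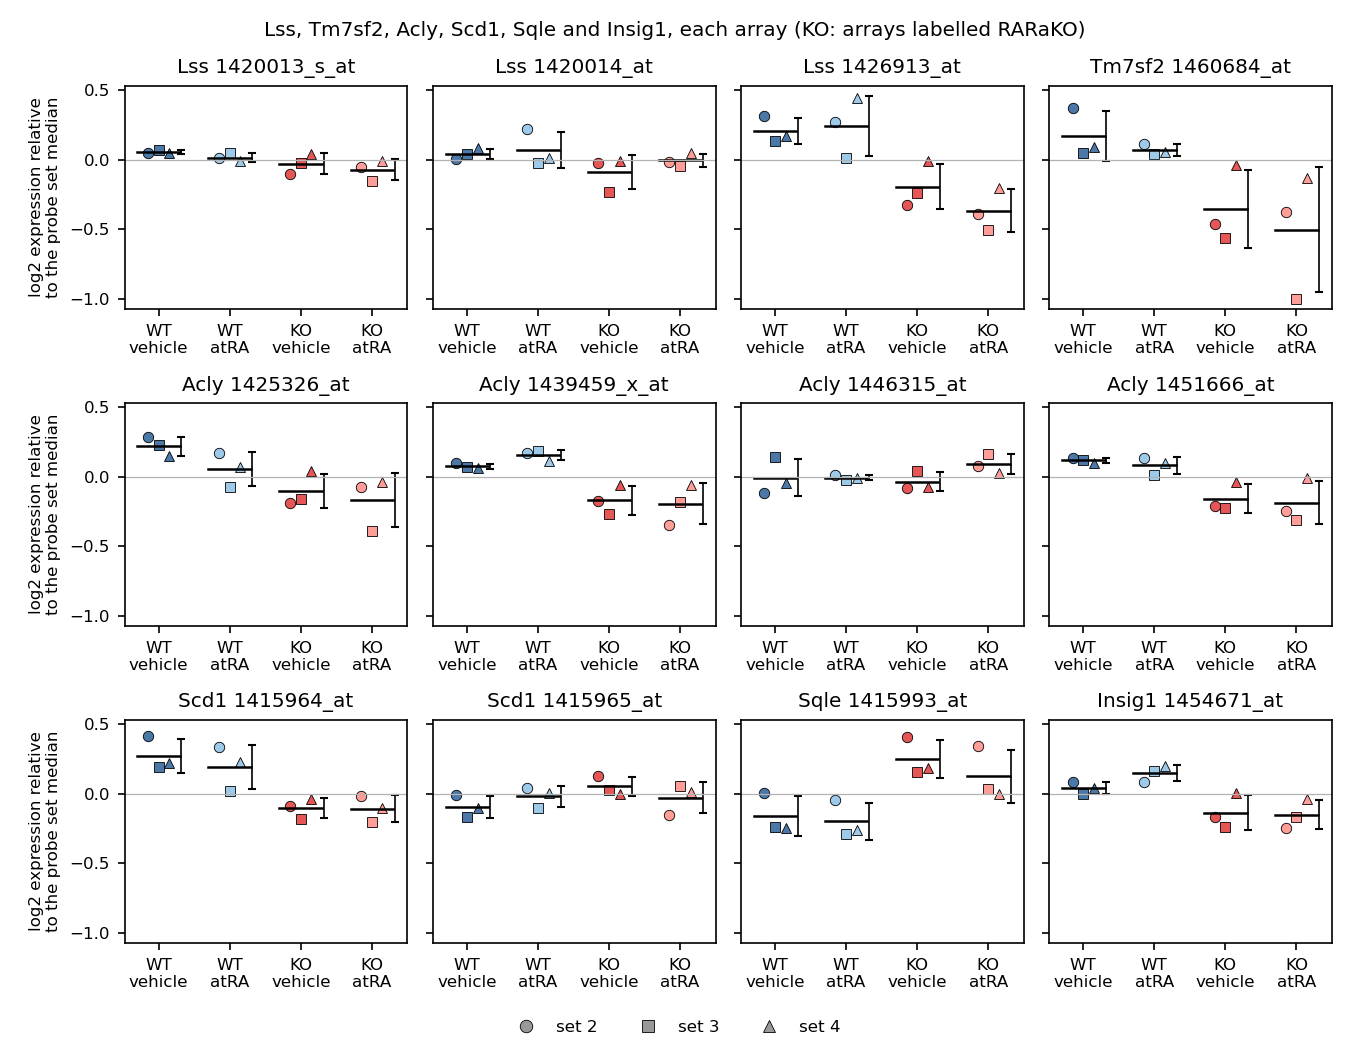
Expression on each array relative to the probe set's median (log2 scale) for all probe sets of Lss, Tm7sf2, Acly, Scd1, Sqle and Insig1; points are arrays by set, lines are group means and bars the standard deviation of 3 arrays. The RARaKO (KO) group means lie lower for Lss (most for 1426913_at), Tm7sf2, Insig1, 3 of 4 Acly probe sets and Scd1 1415964_at. They lie higher for Sqle, and not lower for Scd1 1415965_at in vehicle.

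Of the regulators, Insig1 alone was called, when treatments were averaged. Insig1, itself an SREBP target that holds SCAP in the endoplasmic reticulum, read 0.09, -0.00 and 0.04 in the WT vehicle arrays, 0.08, 0.16 and 0.19 in WT atRA, -0.17, -0.24 and 0.00 in RARaKO vehicle and -0.25, -0.17 and -0.04 in RARaKO atRA. The genotypes did not overlap in atRA, and in vehicle only the RARaKO array of set 4 reached the WT range. The difference was -0.18 ± 0.08 in vehicle (adjusted p = 0.292) and -0.30 ± 0.08 in atRA (adjusted p = 0.0586). Without the array of set 4 of RARaKO vehicle or of RARaKO atRA the latter was called (-0.30 and -0.35, adjusted p = 0.0431 and 0.0425), as it was by gene means (adjusted p = 0.0353), at a level of at least 8 (adjusted p = 0.0228) and with the set as a block (adjusted p = 0.0268). The averaged difference of -0.24 ± 0.05 (adjusted p = 0.0151) was lost without set 2 or set 3 (adjusted p = 0.138 and 0.154). The transcription factors themselves differed little: Srebf1 by -0.06 in vehicle and 0.02 in atRA, and the probe sets of Srebf2 by -0.15 and 0.05 and by -0.17 and -0.07. Scap lay between -0.08 and 0.12 and Insig2 between -0.01 and 0.19 over both treatments. Stard4, which carries cholesterol between membranes, had probe sets at -0.20 to 0.19 in vehicle and -0.13 to 0.23 in atRA. None of the latter 5 genes was called.

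In fatty acid synthesis 1 of 20 probe sets was called lower in each treatment. Acly, which releases cytosolic acetyl-CoA from citrate for both pathways, was lower in 3 of its 4 probe sets. Probe set 1439459_x_at read 0.10, 0.07 and 0.06 in the WT vehicle arrays, 0.17, 0.19 and 0.11 in WT atRA, -0.18, -0.27 and -0.06 in RARaKO vehicle and -0.35, -0.18 and -0.06 in RARaKO atRA. In each treatment all RARaKO arrays were below all WT arrays, with set 4 the closest. The difference was -0.24 ± 0.08 in vehicle (adjusted p = 0.14) and -0.35 ± 0.08 in atRA (adjusted p = 0.0316). The call in atRA was lost without any of the 3 WT atRA arrays (adjusted p = 0.0807 to 0.0861), without the RARaKO atRA array of set 2 (-0.27, adjusted p = 0.0936) or set 3 (-0.36, adjusted p = 0.0614), and without any whole set. It was lost as well in a fit to the 6 atRA arrays (adjusted p = 0.108) and without variance moderation (adjusted p = 0.0642).

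Acly probe set 1451666_at read 0.13, 0.12 and 0.10 in the WT vehicle arrays, 0.13, 0.01 and 0.10 in WT atRA, -0.21, -0.23 and -0.04 in RARaKO vehicle and -0.24, -0.31 and -0.01 in RARaKO atRA, again without overlap between genotypes in either treatment. It differed by -0.28 ± 0.08 in vehicle (adjusted p = 0.102, and 0.0495 with the set as a block) and -0.27 ± 0.08 in atRA (adjusted p = 0.101). Probe set 1425326_at differed by -0.32 ± 0.10 and -0.22 ± 0.10, and its averaged call (-0.27 ± 0.07, adjusted p = 0.0283) was lost without any of 6 single arrays: RARaKO vehicle of set 2 or 3, WT vehicle of set 2 or 3, or WT atRA of set 2 or 4 (adjusted p = 0.0549 to 0.0711). The averaged calls of 1439459_x_at and 1451666_at were each lost without set 2 (adjusted p = 0.0748 and 0.156) or set 3 (adjusted p = 0.0976 and 0.11). The fourth probe set, 1446315_at, differed by -0.03 and 0.10. By the mean of the 4 probe sets Acly was not called in atRA (-0.19, adjusted p = 0.103).

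Scd1, the desaturase that makes oleate, had probe sets that disagreed. Probe set 1415964_at read 0.41, 0.19 and 0.22 in the WT vehicle arrays, 0.33, 0.02 and 0.23 in WT atRA, -0.09, -0.18 and -0.04 in RARaKO vehicle and -0.02, -0.21 and -0.10 in RARaKO atRA. The RARaKO arrays lay below the WT arrays in both treatments, the WT atRA array of set 3 being close to them. It differed by -0.38 ± 0.09 in vehicle (adjusted p = 0.0466) and -0.30 ± 0.09 in atRA (adjusted p = 0.1). Probe set 1415965_at read -0.01, -0.17 and -0.11 in the WT vehicle arrays, 0.04, -0.10 and 0.00 in WT atRA, 0.13, 0.03 and -0.00 in RARaKO vehicle and -0.16, 0.05 and 0.01 in RARaKO atRA, and differed by 0.15 ± 0.07 and -0.01 ± 0.07. The vehicle call of the former was lost without any of the 6 vehicle arrays (-0.42 to -0.31, adjusted p = 0.071 to 0.18) and without the atRA array of set 4 of either genotype (adjusted p = 0.0618 and 0.0678). It was also lost after centring each array on its median (adjusted p = 0.0535) and without any whole set (adjusted p = 0.154 to 0.23). Gene means (-0.11, adjusted p = 0.442) and a fit without variance moderation (adjusted p = 0.111) lost it too. In atRA 1415964_at was called without the WT array of set 3 (-0.39, adjusted p = 0.0428). It was called there as well with the set as a block (adjusted p = 0.0214) and with array weights (adjusted p = 0.0366).

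The other genes of fatty acid synthesis had 0 called probe sets. Acaca and Fasn, which make malonyl-CoA and palmitate, lay between -0.09 and -0.07 in vehicle and between -0.22 and -0.03 in atRA. Elovl6, Scd2, Fads1 and Fads2, which lengthen and desaturate fatty acids, lay between -0.22 and 0.17 in vehicle and between -0.19 and 0.24 in atRA. Fads1 had probe sets of opposite sign, at -0.16 and 0.16 in vehicle and -0.19 and 0.24 in atRA.

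No member was called for a response to atRA in either genotype. In WT 0 of 72 probe sets were called, and 2 had an unadjusted p under 0.05, while 0.569% of all probe sets were called and 7.27% had such a p. In RARaKO 0 were called and 4 had an unadjusted p under 0.05, with 0.263% of all probe sets called and 8.2% at such a p. The WT groups did not overlap in 2 members lower with atRA and 6 higher, against 7.4% and 6.22% of all probe sets, and the RARaKO groups in 3 lower and 2 higher, against 5.4% and 7.31%. With the set as a block, 339 and 167 of all probe sets were called in place of 214 and 99, and still 0 members. The median response over the 33 genes was -0.015 in WT and -0.036 in RARaKO, against -0.009 and -0.007 over all genes. Of the 72 member intervals 68 in WT and 67 in RARaKO lay inside ±0.5. The 7 retinoic acid targets, chosen with earlier results of these data known, rose by 0.94 to 1.74 in WT and 0.71 to 1.45 in RARaKO. The difference between the WT and RARaKO responses was called for 0 members (1 with an unadjusted p under 0.05), and for 0% of all probe sets (3.11% with such a p).

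**Figure D5:**
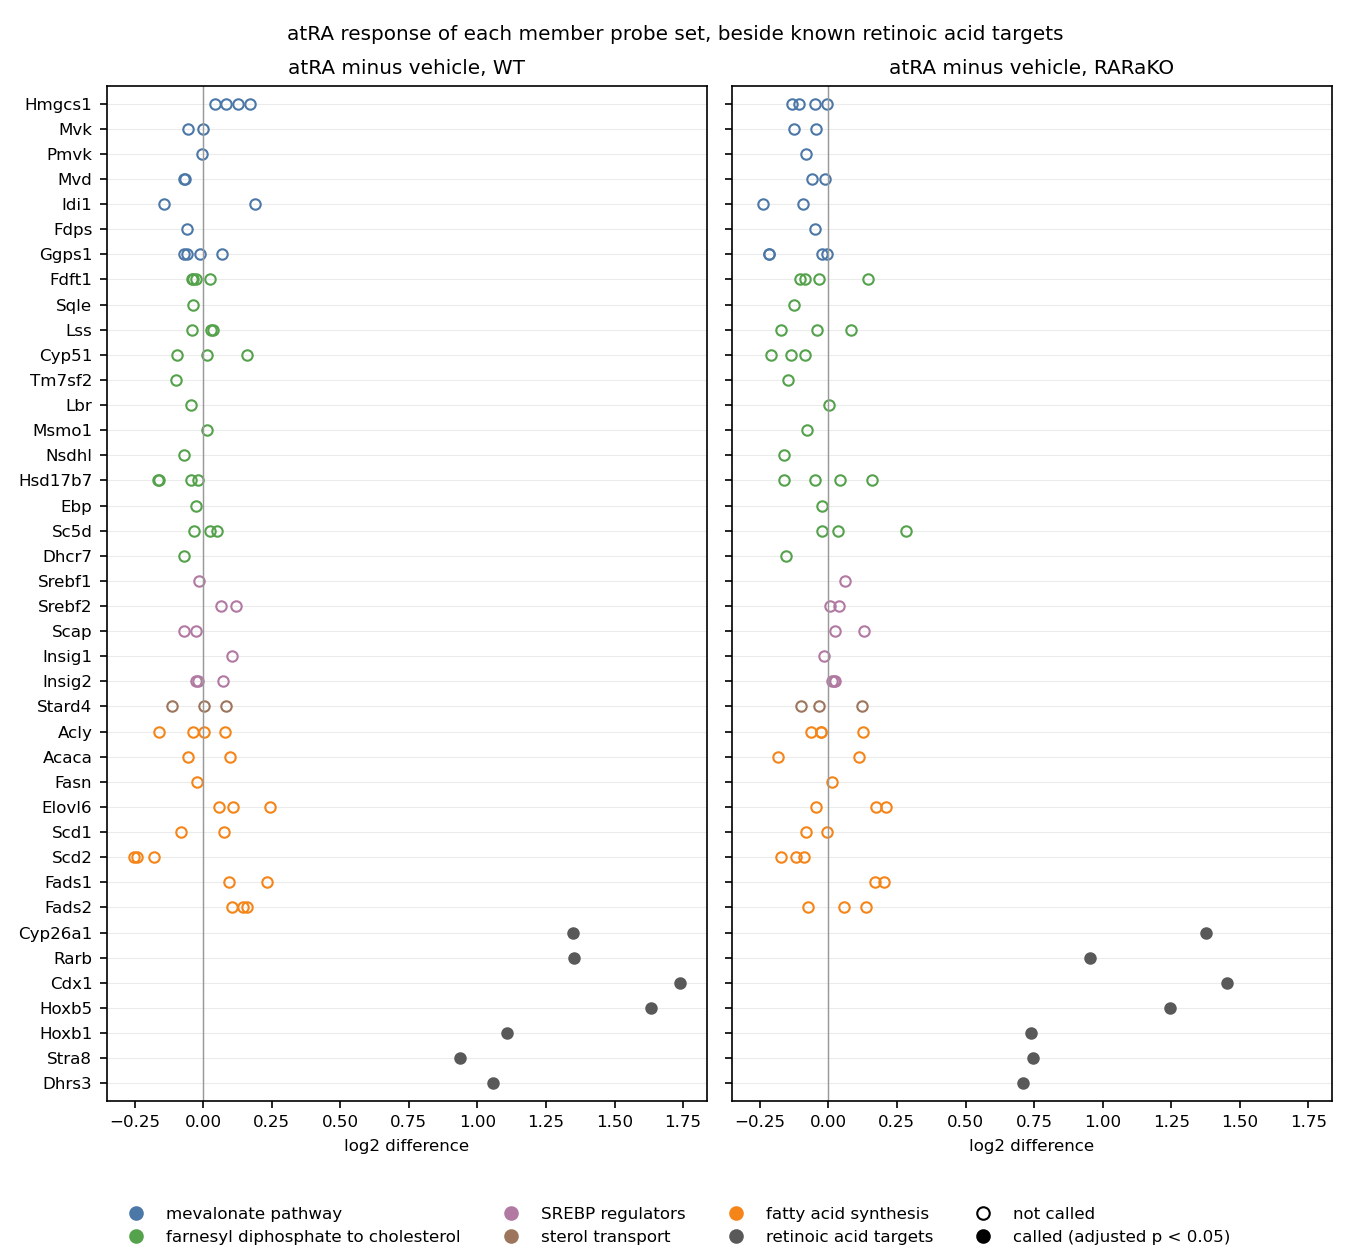
Difference between atRA and vehicle (log2) for each member probe set, by gene and role, in WT (left) and RARaKO (right), with the 7 retinoic acid targets of the check at the bottom in grey; filled points were called. Every member point lies between -0.25 and 0.28 and is open, and all 7 targets are filled at 0.71 or above.

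Hmgcs1 did not stand out here. Its 4 probe sets moved by 0.04 to 0.17 with atRA in WT and by -0.13 to -0.00 in RARaKO, and the difference between these responses was furthest from 0 for 1433444_at, at -0.28 ± 0.17. The member with the smallest p in WT was Fads1, the delta-5 desaturase of polyunsaturated fatty acid synthesis. Its probe set 1423680_at read 0.00, -0.08 and -0.00 in the WT vehicle arrays, 0.19, 0.18 and 0.25 in WT atRA, -0.26, -0.24 and -0.07 in RARaKO vehicle and 0.04, -0.12 and 0.12 in RARaKO atRA. In WT all atRA arrays lay above all vehicle arrays, and in RARaKO the atRA array of set 3 fell among the vehicle arrays. The response was 0.23 ± 0.08 in WT (adjusted p = 0.36) and 0.20 ± 0.08 in RARaKO (adjusted p = 0.478). Averaged over genotypes, an addition made after the data were seen, it was 0.22 ± 0.05 (adjusted p = 0.068), the smallest p among members. In that comparison 1.6% of all probe sets and 0 of 72 members were called. By gene means 1 of the 8 genes of fatty acid synthesis was called higher there, and some other settings given below called members too.

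Elovl6, which lengthens palmitate to stearate, read -0.09, -0.25 and -0.14 in the WT vehicle arrays, 0.23, -0.08 and 0.10 in WT atRA, 0.05, -0.04 and -0.13 in RARaKO vehicle and 0.39, 0.04 and 0.08 in RARaKO atRA for 1417403_at. The atRA arrays were above the vehicle arrays in WT, and in RARaKO the groups overlapped. Its responses were 0.24 ± 0.10 in WT and 0.21 ± 0.10 in RARaKO (adjusted p = 0.617 and 0.637). Scd2, the desaturase next to Scd1, had probe sets at -0.25 to -0.18 in WT and -0.17 to -0.09 in RARaKO, among which 1415822_at read 0.20, -0.01 and 0.02 in the WT vehicle arrays, 0.01, -0.31 and -0.03 in WT atRA, 0.07, 0.03 and 0.09 in RARaKO vehicle and -0.05, -0.06 and -0.06 in RARaKO atRA. The array of WT atRA of set 3 was lowest, and the WT groups overlapped. Fads2, the delta-6 desaturase, was at 0.11 to 0.16 in WT and -0.08 to 0.14 in RARaKO. For its probe set 1443838_x_at, which read -0.07, -0.10 and -0.01 in the WT vehicle arrays, 0.08, 0.06 and 0.16 in WT atRA, 0.11, -0.02 and 0.01 in RARaKO vehicle and -0.16, -0.08 and 0.12 in RARaKO atRA, the responses differed by -0.24 ± 0.11 (unadjusted p = 0.0474, adjusted p = 1.00). The WT atRA arrays were above the WT vehicle arrays, and the RARaKO groups overlapped.

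Among the sterol enzymes Sc5d, which places the C5 double bond, read -0.12, 0.18 and -0.09 in the WT vehicle arrays, -0.01, 0.01 and 0.12 in WT atRA, -0.13, -0.02 and -0.02 in RARaKO vehicle and 0.27, 0.13 and 0.28 in RARaKO atRA for 1424709_at. The 3 RARaKO atRA arrays were above the 3 RARaKO vehicle arrays, and the WT groups overlapped. Its response was 0.28 ± 0.08 in RARaKO (adjusted p = 0.306) and 0.05 ± 0.08 in WT, and its other 2 probe sets were at -0.02 and 0.03 in RARaKO. Cyp51 read 0.18, 0.05 and -0.08 in the WT vehicle arrays, 0.13, -0.07 and 0.14 in WT atRA, 0.05, 0.01 and -0.01 in RARaKO vehicle and -0.32, -0.17 and -0.09 in RARaKO atRA for 1422533_at, with all RARaKO atRA arrays below RARaKO vehicle and a response of -0.21 ± 0.09 (adjusted p = 0.555), against 0.01 ± 0.09 in WT. For 1422534_at it read 0.02, -0.03 and 0.00 in the WT vehicle arrays, 0.23, -0.03 and 0.26 in WT atRA, -0.18, 0.03 and -0.00 in RARaKO vehicle and -0.16, -0.24 and 0.00 in RARaKO atRA, and the WT groups overlapped, at a response of 0.16 ± 0.09. Hsd17b7 probe set 1457248_x_at read 0.17, 0.05 and 0.12 in the WT vehicle arrays, 0.03, -0.19 and 0.02 in WT atRA, -0.14, -0.18 and 0.14 in RARaKO vehicle and -0.10, -0.20 and -0.02 in RARaKO atRA, with all WT atRA arrays below WT vehicle and a response of -0.16 ± 0.09. Its probe set 1417871_at read 0.43, -0.09 and 0.04 in the WT vehicle arrays, 0.18, -0.08 and -0.20 in WT atRA, -0.04, -0.05 and 0.16 in RARaKO vehicle and 0.41, -0.06 and 0.20 in RARaKO atRA, and both genotypes overlapped between treatments. Ggps1 probe set 1419805_s_at read 0.23, -0.01 and -0.02 in the WT vehicle arrays, -0.04, 0.01 and 0.06 in WT atRA, 0.17, 0.18 and 0.03 in RARaKO vehicle and -0.05, -0.07 and -0.13 in RARaKO atRA, with a response of -0.22 ± 0.08 in RARaKO (adjusted p = 0.451) and -0.06 ± 0.08 in WT. The RARaKO atRA arrays were all below RARaKO vehicle, and the WT groups overlapped.

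The control probes for RNA integrity were examined beside these results. The mean difference between the 5′ and 3′ control probe sets ran from -0.123 to -0.0844 in WT vehicle, -0.0248 to 0.0178 in WT atRA, -0.0227 to 0.132 in RARaKO vehicle and 0.00122 to 0.0897 in RARaKO atRA. The genotypes did not overlap in vehicle, with RARaKO higher, and overlapped in atRA. In WT the vehicle arrays lay below the atRA arrays without overlap, and in RARaKO the treatments overlapped. The RARaKO atRA array of set 2, which set Idi1 apart, had the widest spread over all probe sets. Its standard deviation was 0.201, against 0.128 to 0.162 on the others. The part of RNA integrity and of this spread in the genotype differences and the atRA responses was not tested. Values of 10 endoderm marker genes, relative to the probe set medians, were averaged by gene and then over the genes. This mean ran from -0.134 to 0.169 in WT vehicle and from -0.086 to 0.0812 in RARaKO vehicle. In atRA it ran from -0.204 to 0.154 in WT and from -0.0569 to 0.0682 in RARaKO. Of these genes 7 lay in the class of 8 or above and 3 between 4 and 8, and 0 were called in any of these comparisons.

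Genes that border the pathway were read from 4 further lists. The isoprenoid branches (12 of 15 genes measured, 24 probe sets) had 1 probe set called higher in RARaKO in each treatment, Zmpste24, the protease that matures lamin A, at 0.68 ± 0.07 and 0.73 ± 0.07. The list of SREBP processing and sterol-regulated degradation (10 of 12 genes, 15 probe sets) had 1 called higher in vehicle, Mbtps1, the site-1 protease that cuts SREBP, at 0.35 ± 0.06 for 1431385_a_at (adjusted p = 0.00883), and 0 in atRA. The other 2 probe sets of Mbtps1 differed by -0.01 and 0.04 in vehicle, and by gene means 0 genes of the list were called in either treatment. With treatments averaged 3 of its 15 probe sets were called higher and 2 lower, against 5.28% and 5.61% of all probe sets. Mbtps1 1431385_a_at (0.21 ± 0.04, adjusted p = 0.0103) and Rnf139 (0.17 ± 0.04, adjusted p = 0.0223) were called higher. Syvn1 was called lower (-0.15 ± 0.04, adjusted p = 0.028). The others called were Sec24d (0.30 ± 0.07, adjusted p = 0.0161) and Sec23a (-0.23 ± 0.06, adjusted p = 0.0205), coat proteins of the vesicles that leave the endoplasmic reticulum. Neither list had a call in the responses to atRA. The listed genes without a value were not analysed here.

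In sterol handling (13 of 16 genes, 20 probe sets) 1 probe set was called between genotypes in each treatment, 1423570_at of Abcg1, which exports cholesterol. It read -0.19, -0.36 and -0.16 in the WT vehicle arrays, -0.48, -0.50 and -0.33 in WT atRA, 0.34, 0.47 and 0.23 in RARaKO vehicle and 0.18, 0.17 and 0.16 in RARaKO atRA. All RARaKO arrays were above all WT arrays. It was higher in RARaKO by 0.58 ± 0.08 in vehicle (adjusted p = 0.0015) and 0.60 ± 0.08 in atRA (adjusted p = 0.00115). Its other probe set differed by 0.17 ± 0.12 and 0.32 ± 0.12 and was not called. Npc1, which moves cholesterol out of lysosomes, was called higher with treatments averaged (0.21 ± 0.06, adjusted p = 0.0487). Abca1, the other main exporter, was at -0.42 ± 0.11 with atRA in WT for 1421839_at (adjusted p = 0.187) and -0.25 ± 0.11 in RARaKO.

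In other lipid synthesis (16 of 17 genes, 36 probe sets) 2 probe sets were called lower in RARaKO in each treatment, both of Lpin1, a phosphatidate phosphatase of triglyceride synthesis. Probe set 1418288_at read 0.40, 0.18 and 0.28 in the WT vehicle arrays, 0.41, 0.23 and 0.41 in WT atRA, -0.26, -0.22 and -0.37 in RARaKO vehicle and -0.18, -0.24 and -0.25 in RARaKO atRA. The genotypes did not overlap, and the difference was -0.57 ± 0.08 in vehicle (adjusted p = 0.00118) and -0.57 ± 0.08 in atRA (adjusted p = 0.00124). The other probe set was at -0.35 ± 0.08 and -0.42 ± 0.08. Elovl1, an elongase of very long fatty acids, was called higher in 3 of its 4 probe sets in vehicle and 2 in atRA. Elovl1 and Zmpste24 both lie in a run of 221 measured genes on chromosome 4 in which 212 of 412 probe sets were called higher and 0 lower in vehicle, with a median of 0.41, and 219 higher in atRA. That run, delimited after its values were seen, holds 0 of the 33 members.

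The 1 gene of these lists called for atRA within a genotype was Thrsp, the lipogenic protein Spot 14. Probe set 1424737_at read -0.66, -0.93 and -0.52 in the WT vehicle arrays, 0.18, 0.11 and 0.45 in WT atRA, -0.52, -0.69 and -0.11 in RARaKO vehicle and 0.17, 0.12 and 0.51 in RARaKO atRA. In each genotype all atRA arrays lay above all vehicle arrays. It rose by 0.95 ± 0.16 in WT (adjusted p = 0.015), and in RARaKO the response was 0.71 ± 0.16 (adjusted p = 0.132). Its other 2 probe sets were at 0.37 ± 0.13 and -0.01 ± 0.08 in WT and 0.38 ± 0.13 and 0.09 ± 0.08 in RARaKO, none of them called. Averaged over genotypes, 1 of the 3 probe sets of Scarb1, a receptor for high-density lipoprotein, was called higher with atRA as well (0.23 ± 0.05, adjusted p = 0.0373).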

How the data were processed

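GCRMA was the tool used on the arrays, per the submitters' processing notes, with no version in the sources used here. The deposited values are expression per probe set, taken as log2. Every probe set was found to have its 12-array median at 0, so levels are not in the deposited log2 values. A level class was recovered from the spacing of the single-precision numbers, right for 98.9% of 20000 simulated probe sets. Of 37661 probe sets, 61 controls were left out of the tests. Symbols came from the platform annotation: 30488 probe sets carried 1 symbol, and those with several (784) or none (6328) were tested but not named.

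Differences were fitted in R 4.3.3 by the lmFit and eBayes functions of limma 3.58.1 (a mean per group, no block, 8 residual and 4.60 prior degrees of freedom), after the script was tested on simulated data. P-values were two-sided. The labels call replicates only sets, so the p-values may rest on technical spread alone. Same-set arrays deviated together in 15 of 18 pairs (r over 0.1, median 0.19), against 4 of 36 pairs from different sets (median -0.11). All 3 same-set pairs did so for each atRA response (lowest r = 0.1014) and for the genotypes in vehicle (0.116), but not for the genotypes in atRA (lowest r = 0.0375). By this cut the set was taken as pairing the former. Each set holds an array of every group, so the pairing may hold for the genotypes in atRA too. Deviations from a group mean sum to 0, so same-set r above 0 itself pushes different-set r below 0. The different-set median of -0.11 is therefore no independent baseline.

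The members, lists, motifs and tests were chosen with earlier results of these data known. Members with a called probe set, or among the 6 smallest p of a comparison, are described in full, and the rest by ranges. Genes of the 4 bordering lists are named where called within a treatment or genotype, and some that were called with the arrays averaged. The alternatives were a set block, array weights, fewer arrays, gene means, probe set and level filters, 2 further normalizations, other variance priors and leaving out each array or set.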

Additional observations from a re-analysis of the deposited data

How the results depend on the processing

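Each member count was recomputed under the alternatives listed with the methods. The 0 members called for atRA in WT, for atRA in RARaKO and for the difference between these responses stayed 0 in every setting run. In vehicle the 5 members called between genotypes became 9 with the set as a replicate block, 11 with array weights, 2 by gene means (of 33 genes, 1 lower and 1 higher) and 3 without variance moderation, and 2 to 6 when an array or a set was left out. In atRA the 6 became 11 with the set as a replicate block and 3 by gene means, and 3 to 8 when an array or a set was left out. In that comparison the lowest same-set r (0.0375) fell below the cut of 0.1 used for pairing, though each set holds an array of every group. Averaged over treatments the 13 became 8 by gene means and 6 to 16 when an array or a set was left out. For atRA averaged over genotypes the 0 became 2 with the set as a replicate block, and 1 with array weights, by gene means, at a level of at least 8 or after quantile normalization, and 0 to 1 when an array or a set was left out. The median over genes in atRA, -0.047, ran from -0.106 to -0.023 when a set was left out. The causes were not tested. No named difference changed sign while called.

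Over all probe sets the counts called for the response in WT, the response in RARaKO, the genotypes in vehicle and the genotypes in atRA were 214, 99, 1131 and 1173. They were 339, 167, 1972 and 2344 with the block, and 119, 42, 668 and 722 without moderation. Array weights gave 382 for WT and 2071 in vehicle. A fit to the 6 arrays compared gave 14 in RARaKO and 592 in atRA, and a level of at least 8 gave 63 in RARaKO. Gene means gave 684 and 777 genes for the genotypes in vehicle and atRA, and 2313 genes averaged over treatments in place of 4093 probe sets. Averaged over genotypes, 603 became 380 at a level of at least 8 and 350 without moderation. Leaving out an array or a set gave 40 to 226, 2 to 88, 217 to 1426 and 320 to 1124 for the first 4, and 1579 to 3810 and 116 to 548 for the averaged comparisons. With 3 arrays a group the median standard error of a member difference was 0.091, so small differences may have gone uncalled. The fit to 6 arrays was not run for the difference between responses and the averaged comparisons, which need all 12.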
